A study of Mus musculus with 4 samples.

Results

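Txnip, the α-arrestins Arrdc1, Arrdc2, Arrdc3 and Arrdc4, and the transcription factors Mlx, Mlxip (MondoA) and Mlxipl (ChREBP) were followed in Beko cells upon washout of a γ-secretase inhibitor (GSI). These 8 genes were taken by symbol from the 24391 genes of the count table. They were chosen because Txnip was much lower after washout in these same libraries, so their differences between the conditions are given as a description without a test. Beko is a mouse leukemia line of progenitor T-cells in which Notch signaling is constitutively active, and GSI (DAPT) blocks the cleavage that releases the Notch intracellular domain. Total RNA was sequenced from 4 libraries. The 2 GSI libraries came from Beko cells kept in DAPT for 48 h, and the 2 washout libraries from Beko cells kept in DAPT for 48 h, washed, and cultured for 24 h without it. The inhibitor dose is 10 mg/ml in the labels and 10 μg/ml in the study's methods. Both groups had received DAPT, and an untreated group was not analysed here. According to the methods the inhibitor was renewed after a wash at 24 h, so both groups were collected 24 h after a wash, but the washout cells had been cultured for 24 h longer. Release of Notch and the longer culture cannot be told apart in this design. Nothing in the labels says that replicates were separate cultures, so p-values measure the spread between these libraries, which may be technical.

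Txnip is an α-arrestin that binds and inhibits thioredoxin and promotes the endocytosis of glucose transporters, so that it restrains glucose uptake. The other α-arrestins are adaptors that bring membrane proteins to ubiquitin ligases of the Nedd4 family. Txnip and Arrdc4 are known targets of MondoA and ChREBP, which pair with Mlx and bind carbohydrate response elements when hexose phosphates accumulate.

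The promoter is shown first for Txnip, which carries the difference, and then for Arrdc1, Arrdc2 and Arrdc3. Each window runs from 250 bases before to 50 bases after the start site in RefSeq (GRCm38.p6) and was placed on mm9 by an exact match. Capitals mark the letters of 5 motifs searched on both strands. The first was a pair of CACGNG elements in the same orientation, 5 bases apart. The others were the E-box CACGTG, the CCAAT box, the forkhead motif TGTTTAC and the RBPJ motif TGGGAA. Pairs with the second element inverted (CNCGTG) were not searched, so counts of the pair do not cover all carbohydrate response elements. The E-box is one form of CACGNG, and within the pair only the elements themselves are in capitals.
Txnip promoter (mm9 chr3:96361630-96361929, plus strand): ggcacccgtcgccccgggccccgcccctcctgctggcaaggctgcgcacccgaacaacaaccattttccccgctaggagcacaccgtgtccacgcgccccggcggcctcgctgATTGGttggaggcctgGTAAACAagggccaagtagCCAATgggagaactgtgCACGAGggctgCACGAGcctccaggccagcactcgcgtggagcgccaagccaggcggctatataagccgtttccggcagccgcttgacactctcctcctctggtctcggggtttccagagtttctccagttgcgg
Arrdc1 promoter (mm9 chr2:24790752-24791051, minus strand): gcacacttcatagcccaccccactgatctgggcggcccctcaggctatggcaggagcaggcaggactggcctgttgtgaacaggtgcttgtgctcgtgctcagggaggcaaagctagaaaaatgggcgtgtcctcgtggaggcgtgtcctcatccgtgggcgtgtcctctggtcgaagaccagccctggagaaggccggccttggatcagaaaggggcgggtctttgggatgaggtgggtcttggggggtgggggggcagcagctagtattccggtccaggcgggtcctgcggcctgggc
Arrdc2 promoter (mm9 chr8:73363570-73363869, minus strand): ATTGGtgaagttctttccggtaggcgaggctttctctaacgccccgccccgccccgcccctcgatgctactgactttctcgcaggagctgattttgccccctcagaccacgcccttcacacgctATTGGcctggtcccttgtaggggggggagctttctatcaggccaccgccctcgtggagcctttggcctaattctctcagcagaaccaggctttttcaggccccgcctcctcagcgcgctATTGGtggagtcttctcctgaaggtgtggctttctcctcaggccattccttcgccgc
Arrdc3 promoter (mm9 chr13:81022395-81022694, plus strand): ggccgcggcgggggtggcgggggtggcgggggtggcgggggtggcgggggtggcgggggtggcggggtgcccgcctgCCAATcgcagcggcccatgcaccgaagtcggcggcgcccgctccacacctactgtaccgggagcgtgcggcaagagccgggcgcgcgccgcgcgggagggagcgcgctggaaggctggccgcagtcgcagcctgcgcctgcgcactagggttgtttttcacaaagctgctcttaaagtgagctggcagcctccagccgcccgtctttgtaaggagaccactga

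The Txnip window held the pair of CACGNG elements from base -85 to base -69 relative to the start. Such a pair was present in 16 of 32851 promoter windows of the same length (0.0487%). The Txnip window also held a CCAAT box on each strand, at -137 to -133 and at -102 to -98, and the forkhead motif on the minus strand at -121 to -115, a motif found in 3.65% of windows. The CCAAT box was common and occurred in 37.4% of all windows. The Arrdc2 window held 3 CCAAT boxes and the printed Arrdc3 window 1, and the Arrdc1 window matched none of the 5 motifs. Of the windows not printed, that of Arrdc4 held 6 CCAAT boxes, CACGTG at -193 to -188 and TGGGAA at -79 to -74. That of Mlx held CACGTG at -40 to -35 and 2 CCAAT boxes, and that of Mlxip held 2 CCAAT boxes. RefSeq gives 3 windows for Arrdc3, of which the second matched none of the motifs and the third held 1 CCAAT box. Of the 2 windows of Mlxipl, the first matched none and the second held CACGTG and 1 CCAAT box. The E-box was in 7.15% of all windows and the RBPJ motif in 25.6%. These matches describe letters in a window and not bound sites.

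The total counts on genes were between 13716199 and 36364200 per library, and replicate 1 was the deeper library in both conditions. At these depths 3 counts, taken as the limit of detection, correspond to between 0.0881 and 0.223 CPM (counts scaled to a common library size, with TMM factors), a limit that covers counting error only. Dtx1, a Notch target used to check the labels, was at 46.1 and 64.4 CPM in GSI and at 409 and 605 CPM in washout. Genes were called deregulated when edgeR's quasi-likelihood test gave a Benjamini-Hochberg adjusted p-value under 0.05 and the log2 fold change lay beyond 1 in either direction. Of the 12266 genes tested, 7.74% were called higher and 11.7% were called lower in washout. All 11 progenitor T-cell markers were above 0 in every library. Single markers went both ways: Thy1, Tcf7, Gata3 and Bcl11b were lower in washout, and Cd3g, Ptcra, Rag1, Lck and Notch1 were higher. Gata3 was at 262 and 208 CPM in GSI and at 75.8 and 71.7 CPM in washout. Ptcra was at 47.1 and 54.4 CPM in GSI and at 249 and 276 CPM in washout. The summed CPM of the 11 markers was 6361 and 6960 in GSI and 7227 and 7219 in washout. In contrast, the summed CPM of the 6 myeloid markers ranged from 38.2 to 49.2 in GSI and from 4.91 to 5.49 in washout, nearly all of it Itgam, whereas Elane and Lyz2 were at 0. The 5 mast cell markers summed to between 167 and 274 CPM in GSI and between 30.5 and 45.7 CPM in washout, all of it Cpa3 and Kit, with Fcer1a, Mcpt4 and Cma1 at 0. The 4 stroma markers, mostly Pecam1, summed to between 177 and 224 CPM in GSI and between 66.0 and 68.5 CPM in washout. The 6 B-cell markers summed to at most 0.960 CPM and the 4 erythroid markers to at most 1.41 CPM in any library. Except for that of the progenitor T-cell markers, these sums moved in the same direction as Txnip, as did some progenitor T-cell markers singly. The part of all these markers in the results below was not tested. In bulk RNA, fewer cells of a type and less RNA per cell cannot be told apart.

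Txnip (chr3, 96361880 to 96365806, plus strand, mm9) was one of the most abundant transcripts in GSI. It had 55008 and 20805 counts in the GSI libraries and 4888 and 1549 counts in the washout libraries. Scaled to depth, the levels were 1719 and 1426 CPM in GSI and 144 and 115 CPM in washout. Both washout libraries lay far below both GSI libraries. The log2 fold change was -3.60 ± 0.179 (SE, n = 2 per condition), or 12.1-fold lower in washout, whereas replicates of a condition differed by 0.27 in GSI and by 0.32 in washout on the log2 scale. The smallest distance between a GSI and a washout library was 3.31 on the log2 scale.

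Its place among all genes moved accordingly. By raw counts Txnip ranked 18 and 27 among all genes in the GSI libraries and 1802 and 2245 in the washout libraries. It took 0.185% and 0.152% of all counts in GSI, and 0.0134% and 0.0107% in washout. 48 of the tested genes (0.391%) had a lower log2 fold change than Txnip. Txnip and the tested genes at or above its mean CPM in GSI numbered 21, and 3 of them, Txnip included, were called lower. Of all tested genes 11.7% were called lower. After Txnip the lowest log2 fold change among the 21 was -2.66 for Gzma, the cytotoxic protease granzyme A. The mean CPM of Txnip was 1443 lower in washout, and 3 tested genes had a larger drop in CPM.

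**Figure D1:**
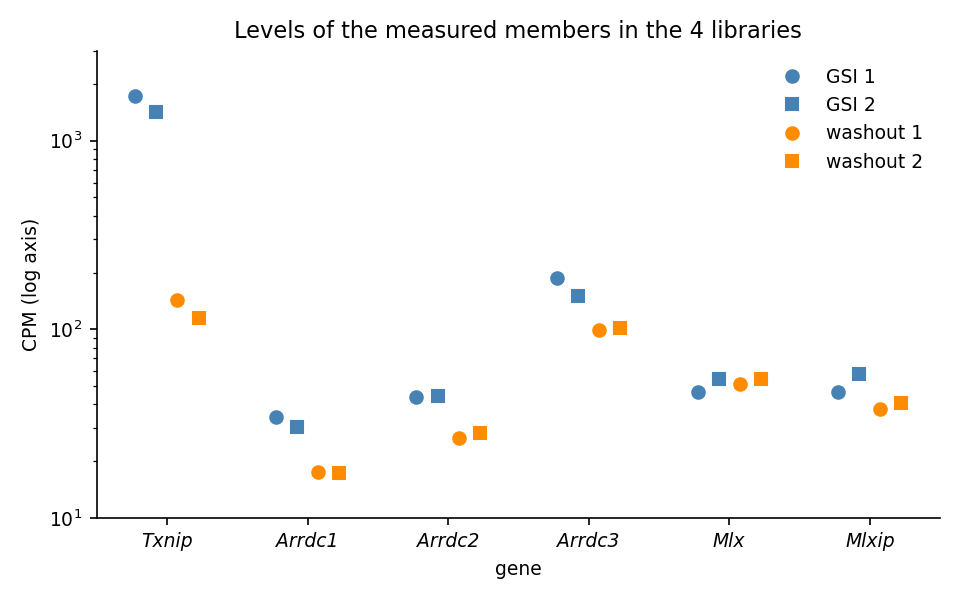
Level of each member with counts in the 4 libraries. The y axis is in CPM on a log scale, blue points are GSI and orange points are washout, circles are replicate 1 and squares are replicate 2. Txnip lies at 1719 and 1426 CPM in GSI and at 144 and 115 CPM in washout, the washout points of Arrdc1, Arrdc2, Arrdc3 and Mlxip lie below their GSI points by less, and those of Mlx overlap.

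The transcript antisense to Txnip had the same pattern. Gm15441 (chr3, 96359688 to 96370724, mm9) overlaps the exons of Txnip on the other strand. It had 13069 and 5096 counts in GSI and 1204 and 391 counts in washout, with a log2 fold change of -3.55 ± 0.149 (SE). The ratio of its counts to those of Txnip was 0.238, 0.245, 0.246 and 0.252 in the 4 libraries. The library kit keeps the strand, but the strand setting and the overlap mode of the counting are not given in the sources used here. Reads of Txnip and of Gm15441 therefore cannot be told apart with certainty, and the same holds for Mlx, which overlaps Psmc3ip in exons. Mlxip overlaps Gm15747 in exons on the other strand, a gene that was not in the count table. Whether reads of Gm15747 were counted for Mlxip is not known. Psmc3ip had 474 and 249 counts in GSI and 1163 and 428 counts in washout, a log2 fold change of 1.06 ± 0.129 (SE). Its part in the counts of Mlx was not tested.

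The α-arrestins Arrdc1, Arrdc2 and Arrdc3 were also lower in washout, by far less than Txnip. Arrdc1 (chr2, 24780872 to 24790772, minus strand), which recruits Nedd4 family ligases to membranes and takes part in the budding of vesicles, was at 34.2 and 30.5 CPM in GSI and at 17.4 and 17.2 CPM in washout. Its log2 fold change was -0.90 ± 0.121 (SE), or 1.87-fold lower. The replicates of washout differed by 0.02 on the log2 scale.

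Arrdc2 (chr8, 73359054 to 73363619, minus strand), a less studied adaptor of the family, was at 43.9 and 44.0 CPM in GSI and at 26.4 and 28.3 CPM in washout. The log2 fold change was -0.69 ± 0.104 (SE), or 1.61-fold lower, and it was -0.45 with the GC content and length offset. Arrdc3 (chr13, 81022645 to 81035296, plus strand), an adaptor known for the degradation of β-adrenergic receptors, was at 186 and 150 CPM in GSI and at 99.6 and 102 CPM in washout. Its log2 fold change was -0.74 ± 0.125 (SE), or 1.67-fold lower. Arrdc4 (chr7, 75881931 to 75894127, minus strand), a close relative of Txnip and like it a target of MondoA, was listed at 0 in every library. Since Hmgcs1, a widely used enzyme of cholesterol synthesis, was also at 0 in every library, no absence of Arrdc4 is drawn from this value.

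**Figure D2:**
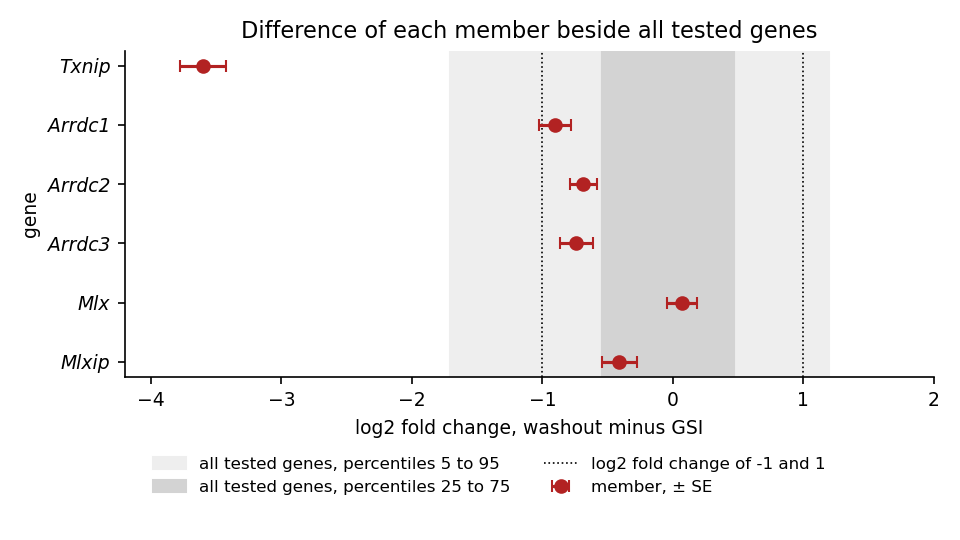
Log2 fold change (washout minus GSI, x axis) of the 6 members with counts, with SE bars. The grey bands hold the central range of all 12266 tested genes (percentiles 5 to 95 in light grey, from -1.71 to 1.20, and 25 to 75 in dark grey, from -0.55 to 0.47), and dotted lines mark -1 and 1. Txnip at -3.60 lies outside the light band, while the other members lie inside it.

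Set beside the spread of all tested genes, the 3 smaller differences lay within the range of most genes. The percentiles 5, 25, 50, 75 and 95 of the log2 fold change over all tested genes were -1.71, -0.55, -0.01, 0.47 and 1.20. Arrdc1, Arrdc2 and Arrdc3 thus lay below the lower quartile but above the lowest 5% of genes. Of the 6 members tested, Txnip was called lower and none was called higher by edgeR, where 11.7% and 7.74% of all tested genes were called. DESeq2 gave the same counts. With total count scaling, which moves the median of all genes to -0.21, Arrdc1 was also past the limit at -1.10. Since Txnip was picked from this contrast, nothing is read from these counts.

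Compared per kilobase of exon, Txnip remained the most abundant of the members in all 4 libraries, although its lead shrank. Its level was 567 and 470 CPM per kb in GSI and 47.4 and 38.0 CPM per kb in washout. It made up 90.1% and 89.5% of the summed CPM per kb of Txnip, Arrdc1, Arrdc2 and Arrdc3 in GSI, and 58.1% and 51.9% in washout. The share of Arrdc3 was 4.72% and 4.55% in GSI and 19.5% and 22.2% in washout. The summed level of the 3 genes without Txnip was itself lower in washout, at 34.2 and 35.3 CPM per kb against 62.2 and 55.0 CPM per kb in GSI, so the larger shares came with lower levels. Txnip exceeded Arrdc3 by 19.1-fold and 19.7-fold per kb in GSI, and by 2.98-fold and 2.34-fold in washout. The further order per kb was Mlx, Arrdc3, Arrdc2, Arrdc1 and Mlxip in 3 libraries, with Arrdc3 ahead of Mlx in GSI replicate 1.

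**Figure D3:**
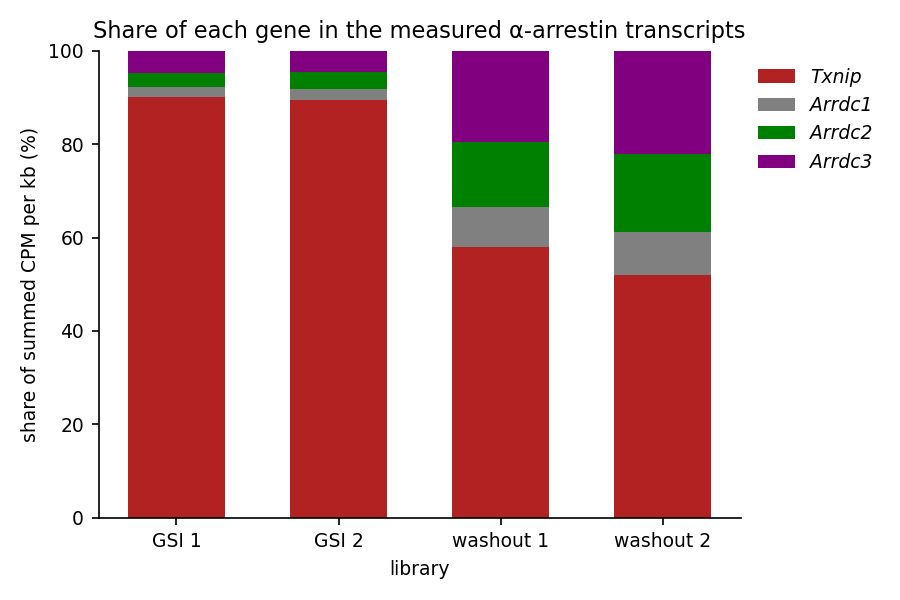
Share of Txnip, Arrdc1, Arrdc2 and Arrdc3 in their summed CPM per kb of exon (y axis, percent) in each library (x axis). Each bar is 1 library and adds up to the whole. Txnip takes 90.1% and 89.5% in GSI and 58.1% and 51.9% in washout.

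The transcription factors that act on carbohydrate response elements differed little. Mlx (chr11, 100948591 to 100953521, plus strand), the common partner of MondoA and ChREBP, was at 46.4 and 54.6 CPM in GSI and at 51.4 and 54.4 CPM in washout. The groups overlapped, and the log2 fold change was 0.07 ± 0.115 (SE), a value whose sign turned with total count scaling (-0.13), with the GC content and length offset (-0.021) and without GSI replicate 1 (-0.052). Mlxip (chr5, 123844807 to 123915306, plus strand), which encodes MondoA, was at 46.3 and 57.6 CPM in GSI and at 37.5 and 40.5 CPM in washout. Its log2 fold change was -0.41 ± 0.134 (SE) and the nearest libraries of the 2 conditions were 0.19 apart on the log2 scale, less than the distance between the GSI replicates. Without GSI replicate 2 the value was -0.24, and with an offset for GC content and length it was -0.16. Mlx exceeded Mlxip by 4.11-fold and 3.89-fold per kb in GSI and by 5.62-fold and 5.52-fold in washout. Mlxipl (chr5, 135582761 to 135614254, plus strand), which encodes ChREBP, best known from liver and fat, was listed at 0 in every library.

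Genes with the same pair of CACGNG elements in their promoter window were then counted. The pair was found in the windows of 15 genes, of which 14 were in the count table and 10 were tested. Of the 9 besides Txnip, 1 was called lower and 3 were called higher, by edgeR with Benjamini-Hochberg adjustment, where 11.7% and 7.74% of all tested genes were called. With so few genes nothing more is read from these counts. These genes are named after their values were seen. Man2b2, a lysosomal mannosidase, was at -1.46 ± 0.104 (adjusted p = 0.000343). Irak1bp1, a regulator of NF-κB signaling, was at 1.89 ± 0.358 (adjusted p = 0.00605), Nfkb2 at 1.14 ± 0.148 (adjusted p = 0.00152) and Rbmxl1 at 1.21 ± 0.0914 (adjusted p = 0.000374).

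To describe the surroundings of Txnip, 7 lists of genes of the same pathways were counted. Their genes were not used to choose the members, but they come from the same libraries. Called genes outside the rule for named genes are named because the counts are small, after their values were seen. Their adjusted p-values are those of edgeR, by its quasi-likelihood test, and cover all tested genes (Benjamini-Hochberg).

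The partner of Txnip, the thioredoxin system, was mostly higher in washout. Of 23 genes tested, 5 were called higher and 1 lower, beside 7.74% and 11.7% of all tested genes. The list median was 0.70 against -0.01 for all tested genes. Txnrd1, the cytosolic thioredoxin reductase, was at 153 and 139 CPM in GSI and at 319 and 273 CPM in washout, a log2 fold change of 1.02 ± 0.119 (adjusted p = 0.00107). This call is close to the limit, as the value dropped under it with total count scaling (0.82) and when GSI replicate 2 (0.96) or washout replicate 1 (0.91) was left out. Txnrd3, a reductase best known from testis, had the largest rise of the list at 1.32 ± 0.258 (adjusted p = 0.00684), from 2.00 and 1.99 CPM to 4.52 and 5.51 CPM.

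The other genes of the list called higher were Prdx1, a peroxiredoxin, with a log2 fold change of 1.29, and the thioredoxin-fold proteins Txnl1 with 1.06 and Glrx3 with 1.05. Txn1, thioredoxin itself and the direct partner of Txnip, was at 128 and 125 CPM in GSI and at 251 and 225 CPM in washout. Its log2 fold change of 0.91 ± 0.101 (adjusted p = 0.000905) did not reach 1, though it just passed that limit without washout replicate 2, and it was 0.59 with the GC content and length offset. The gene called lower, Prdx5, was at -1.01 ± 0.0982 (adjusted p = 0.000625). It missed the limit with DESeq2 (-0.997), without the low-count filter (-0.98) and with the GC content and length offset (-0.88). Without GSI replicate 1 it was at -0.94 and without washout replicate 1 at -0.996. By the adjusted p-value alone, 15 genes of the list were higher and 2 lower, beside 3315 and 3120 of the 12266 tested genes. The GC content and length offset left 3 genes of the list called higher, and total count scaling left 2. With glmTreat, which tests for a change beyond the limit, none was called higher, against 308 of all tested genes.

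Of the Max and Mlx partners, 8 were tested, 2 were called lower and none was called higher, beside 11.7% and 7.74% of all tested genes. The 2 called lower, Mxd4 and Mxd1, encode repressors that are known to pair with Max and also with Mlx. Mxd4 was at 132 and 164 CPM in GSI and at 29.3 and 30.5 CPM in washout, a log2 fold change of -2.30 ± 0.132 (adjusted p = 0.000297). Mxd1 was at 39.2 and 36.9 CPM in GSI and at 12.0 and 11.7 CPM in washout, a log2 fold change of -1.68 ± 0.117 (adjusted p = 0.000343). For both genes the conditions were far apart compared with the replicates.

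Myc, which pairs with Max, was at 157 and 152 CPM in GSI and at 283 and 334 CPM in washout. Its log2 fold change of 0.997 ± 0.115 (adjusted p = 0.00102) lay just under the limit, and DESeq2 called it at 1.01, which makes its count of higher genes in the list 1. Myc was also past 1 with the GC content and length offset (1.10) and without the low-count filter (1.03). It was at 1.01 without GSI replicate 1, at 1.12 without washout replicate 1 and at 0.80 with total count scaling. Max was at 0.45 ± 0.0922 (adjusted p = 0.00789). Mnt, a further repressor that pairs with Max and Mlx, was at -0.04 ± 0.130, a value that turned to 0.26 with the GC content and length offset. The list median was -0.00, and 3 genes were higher and 2 lower at an unadjusted p under 0.05.

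For glucose uptake and its first steps, 17 genes were tested, with a median of 0.16. Of them 2 were called higher and 2 lower, beside 7.74% and 11.7% of all tested genes, and nothing is read from these counts. Hk2, the inducible hexokinase, rose by a log2 fold change of 1.65 ± 0.296 (adjusted p = 0.00485), and was at 27.3 and 28.1 CPM in GSI against 59.7 and 116 CPM in washout. Both washout libraries were above both GSI libraries, although they stood apart from each other. The second gene called higher was Adpgk, the ADP-dependent glucokinase, at 1.23. Slc2a6, a weakly expressed transporter, fell with a log2 fold change of -1.54 ± 0.484 (adjusted p = 0.0372), as did Slc2a8, a transporter of inner membranes, with -1.24. The call for Slc2a6 was lost with DESeq2 and when a library was dropped, at -1.72 for GSI replicate 1, -1.37 for GSI replicate 2 and -0.89 for washout replicate 1.

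Slc2a1 and Slc2a3 did not pass the test, which was run without a replicate block. Slc2a1 (GLUT1), which Txnip is known to help clear from the cell surface, was at 12.1 and 27.7 CPM in GSI and at 27.6 and 77.7 CPM in washout. In both conditions replicate 2 was more than 2-fold above replicate 1, and the groups overlapped, with a log2 fold change of 1.42 ± 0.558 (adjusted p = 0.0743). Single libraries moved it both ways, to 2.11 without GSI replicate 2 and 2.02 without washout replicate 1, where it was called and the list had 4 and 5 genes called higher, and to 0.90 without GSI replicate 1 and 0.53 without washout replicate 2. Slc2a3 (GLUT3) was at 35.9 and 35.0 CPM in GSI and at 16.3 and 28.9 CPM in washout, with a log2 fold change of -0.68 ± 0.254 (adjusted p = 0.0642), and it was called at -1.11 without washout replicate 2 and lay at -0.29 without washout replicate 1. Hk1, the constitutive hexokinase, was at 0.16 ± 0.0923 (adjusted p = 0.197) and at -0.042 with total count scaling. Transcripts do not tell how much transporter lies at the surface.

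**Figure D4:**
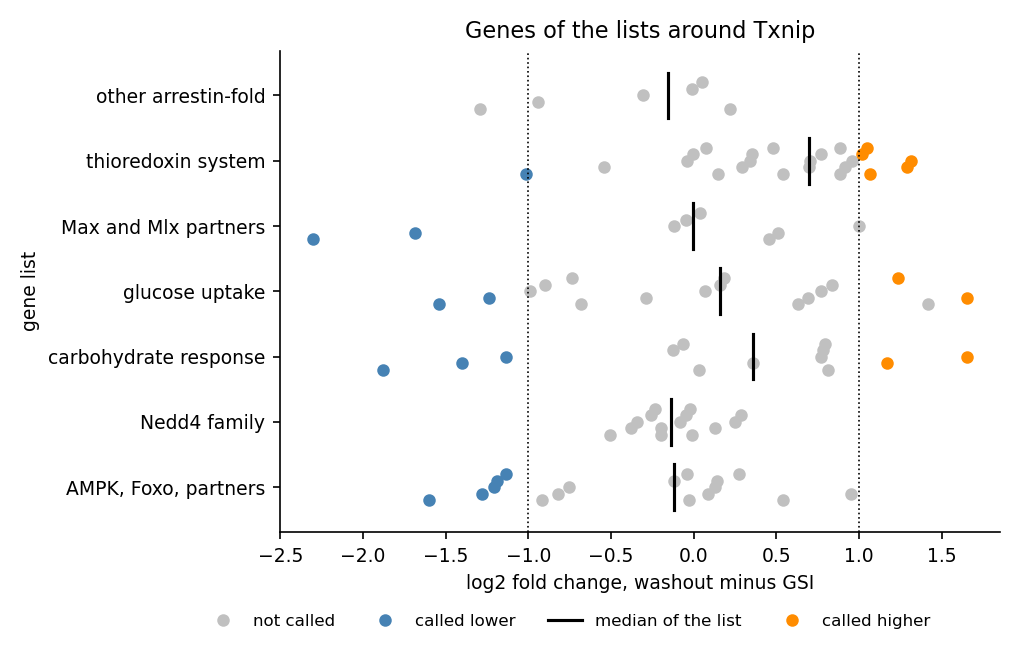
Log2 fold change (washout minus GSI, x axis) of the tested genes of the 7 lists, 1 row per list. Orange points were called higher, blue points lower and grey points neither, black bars are list medians and dotted lines mark -1 and 1. The thioredoxin system has the highest median, 0.70, and no point of the Nedd4 family lies past a dotted line.

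Genes known from other tissues as targets of Mlx complexes were called in both directions. Of 13 tested, 2 were called higher and 3 lower, beside 7.74% and 11.7% of all tested genes, and the list median was 0.36. With the GC content and length offset 4 were called higher, and with total count scaling 1. Hk2 and Tkt, a transketolase of the pentose phosphate pathway at 1.17, were called higher. Klf10, a Krüppel-like repressor that is a carbohydrate response gene in liver, had the largest fall. It was at 231 and 202 CPM in GSI and at 62.3 and 55.3 CPM in washout, a log2 fold change of -1.88 ± 0.118 (adjusted p = 0.000315). Acacb, a mitochondrial acetyl-CoA carboxylase, at -1.40, and the repressor Bhlhe40 at -1.14 were also called lower. Bhlhe40 was at 29.2 and 30.4 CPM in GSI and at 8.52 and 19.5 CPM in washout (adjusted p = 0.0352), so its washout libraries stood apart. With the GC content and length offset 2 genes of the list were called lower, and with glmTreat 2 were called lower and none higher. The lipogenic genes Fasn, Acly and Acaca had log2 fold changes of 0.81, 0.78 and 0.79 and were not called.

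Of the Nedd4 family ligases and their adaptors, 14 genes were tested and none was called in either direction by edgeR or DESeq2. By edgeR, 7.74% of all tested genes were called higher and 11.7% lower. At an unadjusted p under 0.05, 2 were higher and 4 lower, and the median was -0.14. Itch and Nedd4, ligases that bind α-arrestins, were at -0.20 ± 0.103 and -0.23 ± 0.107. The ends of the list were Nedd4l at 0.29 ± 0.10 and Smurf2 at -0.50 ± 0.0967. Itch and Nedd4 remained abundant, at 91.4 CPM or more for Itch and 536 CPM or more for Nedd4 in every library.

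Among the other arrestin-fold genes, 6 were tested and none was called by edgeR or DESeq2. Of all tested genes, edgeR called 7.74% higher and 11.7% lower. In the list, 2 genes were lower and none higher at an unadjusted p under 0.05. The β-arrestin Arrb1 was at 152 CPM in both GSI libraries and at 76.0 and 82.4 CPM in washout. Its log2 fold change of -0.94 ± 0.0926 (adjusted p = 0.00065) did not reach -1, except with total count scaling, where it was -1.14, and it was -0.57 with the GC content and length offset. Arrb2 was at -0.31 ± 0.108 (adjusted p = 0.054). Sag, the visual arrestin, had at most 1.10 CPM in any library and a log2 fold change of -1.29 ± 0.757 (adjusted p = 0.198), which lay between -2.29 and -0.31 when 1 library was left out. Vps26b, a retromer subunit, was at 0.22 ± 0.104 and the list median was -0.16. Arrdc5, the remaining α-arrestin, was at most at 0.548 CPM and was not tested.

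Of 17 genes of the energy sensor AMPK, the Foxo factors and Txnip partners, 5 were called lower and none higher by edgeR or DESeq2. Over all tested genes edgeR called 11.7% lower and 7.74% higher. At an unadjusted p under 0.05, 8 genes of the list were lower and 3 higher. The list median was -0.12. Prkaa2, the α2 catalytic subunit of AMPK, was at 60.9 and 59.4 CPM in GSI and at 22.7 and 16.4 CPM in washout. It fell most, with a log2 fold change of -1.60 ± 0.162 (adjusted p = 0.000704). Prkaa1, the α1 subunit, was at 0.13 ± 0.232, and its sign turned with total count scaling, at -0.074. The 3 sestrins, stress-induced proteins that act on AMPK and mTORC1, fell together, with log2 fold changes of -1.19 for Sesn1, -1.13 for Sesn2 and -1.28 for Sesn3.

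Foxo3, a transcription factor that is active when growth signals are low, was at 254 and 271 CPM in GSI and at 99.5 and 128 CPM in washout. It fell by 1.21 ± 0.141 on the log2 scale (adjusted p = 0.00107), although with the GC content and length offset the value was -0.97 and not past the limit. Foxo1 was at -0.75 ± 0.173 (adjusted p = 0.0126) and Ddit4, an inhibitor of mTORC1, at -0.92 ± 0.296 (adjusted p = 0.0402), and neither reached -1. Ddit4 was called at -1.47 without washout replicate 2 and lay at -0.49 without washout replicate 1. Cops5, a subunit of the COP9 signalosome that binds Txnip, was at 0.95 ± 0.0908 (adjusted p = 0.000605), and it was just called without GSI replicate 2.

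The genes whose profile over the 4 libraries was most like that of Txnip were found by the distance between log2 CPM values, each centred on its own mean, over the 9288 genes whose log2 CPM averaged 3 or more. The nearest was Gm15441, with a distance of 0.0644, which shares the locus. Then came Gsn, the actin-severing protein gelsolin, at 0.189, and Ccr9, a chemokine receptor of thymocytes, at 0.342. They were followed by Etv5, an ETS family transcription factor, at 0.431 and Tcp11l2 at 0.456. The profile rests on 4 libraries in 2 conditions, so likeness here means mainly a fall of the same size.

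In GSI, Gsn (chr2, 35111927 to 35163420) was at 441 and 412 CPM, and in washout at 43.7 and 31.0 CPM. Ccr9 (chr9, 123587557 to 123691089) lay at 280 and 247 CPM in GSI and at 30.3 and 17.8 CPM in washout. The values of Etv5 (chr16, 22381382 to 22439792) were 103 and 62.1 CPM in GSI, 9.11 and 5.73 CPM in washout. Their log2 fold changes lay between -3.50 and -3.43, and all were below Txnip in level.

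**Figure D5:**
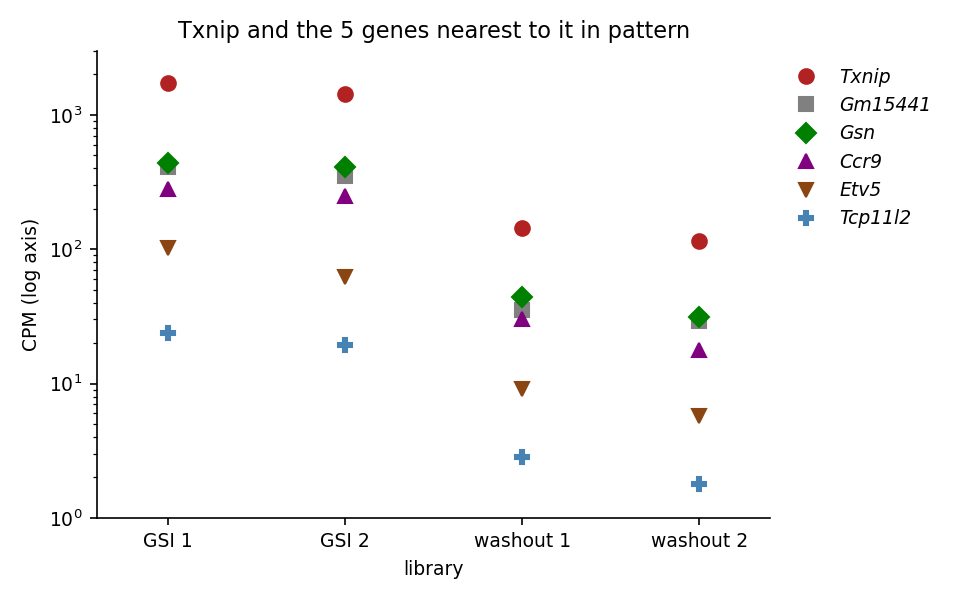
Level of Txnip and of the 5 genes nearest to it in pattern, in CPM on a log axis (y) in each library (x). Each symbol is 1 gene, and Txnip is highest in every library, from 1719 CPM in GSI replicate 1 to 115 CPM in washout replicate 2, and the others are lower in washout as well.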

How the data were processed

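RNA-Seq of Beko cells comprised 2 GSI and 2 washout libraries, grouped by their labels. The authors deposited raw counts for each gene, made with trimGalore, HISAT2 2.2.1 on mm9 and summarizeOverlaps with the iGenomes annotation. The submitters' notes also name DESeq2 1.24.0. Kit: TruSeq Stranded Total RNA with Ribo-Zero Gold. Per the file headers, each column is 1 library, without normalization.

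The main test was that of edgeR 4.0.16, run in R 4.3.3 (filterByExpr, TMM, quasi-likelihood test, no covariates), over all 12266 tested genes, with Benjamini-Hochberg adjustment. An SE is the size of a log2 fold change over the root of its F statistic. The biological coefficient of variation was 0.121. Between replicates, the chi-square per degree of freedom was 17.2 in GSI and 27.7 in washout, above the 1 of sampling noise. Total counts were between 13716199 and 36364200, which sets the limit of 3 counts at between 0.0881 and 0.223 CPM. Exon lengths and positions came from GENCODE on the same build, where 20641 of 24391 symbols matched 1 gene. All 8 members had a RefSeq promoter. The scripts were tested on simulated data.

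Members, lists and the rule for named genes were chosen with earlier results of these data known. The rule took all members, the largest rise and fall in each list, a set of core genes of the pathway, the 5 genes nearest to Txnip in pattern, and Dtx1 and Hes1. Hes1 had a log2 fold change of 1.42, which depended on the GSI replicates (21.8 and 7.68 CPM): it was 2.41 without GSI replicate 1, and it was not called without GSI replicate 2, at 0.92, or with DESeq2. Alternatives were DESeq2 1.42.0, RLE or total count scaling, no filter or at least 10 counts in every library, thinned counts, an offset for GC content and length (over 10962 genes), a replicate block with and without it, glmTreat, the adjusted p-value alone, and leaving out each library. No overlap with other data of the study was computed, and protein sequences were not used here.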

Additional observations from a re-analysis of the deposited data

How the results depend on the processing

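Over all alternatives, the log2 fold change of Txnip lay between -3.80 and -3.44, that of Arrdc1 between -1.10 and -0.76, of Arrdc2 between -0.89 and -0.45, of Arrdc3 between -0.94 and -0.58, of Mlx between -0.13 and 0.20 and of Mlxip between -0.61 and -0.15. Of these values, 63 moved by less than the spread between replicates and 15 moved further. Against 950 genes called higher and 1437 lower, glmTreat called 308 and 501, the adjusted p-value alone 3315 and 3120, and total count scaling 586 higher, so that 23.0% of calls were higher in place of 39.8%. Without 1 library, between 881 and 1064 genes were called higher and between 1118 and 1375 lower. Members called lower numbered 2 with total count scaling and 5 by the adjusted p-value alone, against 1, among the 6 tested. Over all 12266 tested genes, 1963 were called lower with total count scaling and 3120 were lower by the adjusted p-value alone. Since Txnip was picked from this contrast, nothing is read from the counts of members. The pattern list kept 3 of its 5 genes when the minimum average log2 CPM was 1.

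Besides Mlx, signs turned for 3 named genes, none of them called. Mnt was at 0.26 with the GC content and length offset and at 0.25 with the block added, and between -0.12 and 0.052 without 1 library. Prkaa1 was at -0.087 with that offset, at -0.088 with the block added, at -0.074 with total count scaling and between -0.18 and 0.42 without 1 library. Hk1 was at -0.042 with total count scaling. The causes were not tested.

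Same-numbered libraries of the conditions deviated together (correlation of 0.60 over 9198 genes), but with 2 pairs and no label for a shared batch this stays a hint. With the replicate number as a block, 981 genes were called higher and 1576 lower, Sag was called at -1.27 and Slc2a1 at 1.34. With 2 libraries per condition, and with 1 left in the fits that leave out a library, the lone library is assumed to vary like the others.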
